A study of Mus musculus with 12 samples.

Results

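Secreted WNT inhibitors and WNT feedback genes were examined as 10 genes in stromal cells of the mouse colon: Notum, Wif1, Frzb, Sfrp1, Sfrp2, Sfrp4, Dkk2, Dkk3, Apcdd1 and Nkd1. The genes were chosen by symbol for their role, not by a cutoff on a measured value. Earlier results of these data were known when they were chosen. All 10 were found among the 19049 genes of the count table, each as 1 row, and all 10 passed the filter on low counts. The 3 groups, with 4 libraries each, were normal colon of adults (8 weeks), developing colon of pups (P14, that is postnatal day 14, labelled 2 weeks), and AOM/DSS colonic tumour (12 to 14 weeks). All mice carried the label c57bl/6j, and no genotype or transgene was named. AOM (azoxymethane) is a carcinogen and DSS (dextran sulfate sodium) an agent that injures the colonic lining; no dose or schedule was found in the labels. The sort took cells negative for EPCAM (epithelium), CD31 (endothelium), CD45 (leukocytes) and TER119 (red cells), so a library holds all remaining stromal types together. Age and treatment are joined in the tumour group, since no untreated mice of 12 to 14 weeks were included, so the effect of each cannot be told apart.

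WNT proteins are lipid-modified signals that bind Frizzled receptors and LRP5 or LRP6 co-receptors and, in the canonical branch, keep beta-catenin from being degraded. In the colon, WNT ligands and R-spondins from stromal cells sustain the stem cells at the crypt base. The pathway is held in check at several steps. NOTUM removes the lipid from WNT ligands, and WIF1 and the secreted Frizzled-related proteins (SFRP1, SFRP2, SFRP4 and FRZB) bind WNT outside the cell. Dickkopf proteins such as DKK2 bind the LRP co-receptors, whereas DKK3 is a divergent member of that family whose action on WNT signalling is less settled. APCDD1 is a membrane protein that binds WNT and LRP5, and NKD1 binds Dishevelled inside the cell. Notum, Apcdd1 and Nkd1, like Axin2, are known as targets of the pathway they inhibit.

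Promoter sequences from RefSeq (GRCm38.p6) were matched by symbol for 5 of the 10 genes: Wif1, Dkk2, Frzb, Sfrp2 and Nkd1. The windows of 300 bases run from 250 bases before to 50 bases after the RefSeq start. Bases before both the RefSeq and the GENCODE start are printed for Dkk2, Sfrp2 and Wif1, whose starts lie 0, 0 and 44 bases apart. Frzb and Nkd1, whose starts lie further apart, are not printed. CG dinucleotides and the letters TATAAA (or their reverse complement) are in capitals.
Dkk2, chr3:132085042-132085291, plus strand: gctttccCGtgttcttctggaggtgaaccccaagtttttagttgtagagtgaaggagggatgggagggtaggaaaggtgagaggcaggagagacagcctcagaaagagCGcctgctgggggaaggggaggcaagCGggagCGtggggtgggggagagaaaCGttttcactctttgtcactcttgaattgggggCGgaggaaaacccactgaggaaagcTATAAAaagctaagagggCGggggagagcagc
Sfrp2, chr3:83766071-83766320, plus strand: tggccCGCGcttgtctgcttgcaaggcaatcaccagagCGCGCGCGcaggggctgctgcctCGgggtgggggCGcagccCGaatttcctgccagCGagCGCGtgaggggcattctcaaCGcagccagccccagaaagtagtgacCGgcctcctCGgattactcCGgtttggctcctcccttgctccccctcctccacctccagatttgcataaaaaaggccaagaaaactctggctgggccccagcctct
Wif1, chr10:121033754-121033959, plus strand: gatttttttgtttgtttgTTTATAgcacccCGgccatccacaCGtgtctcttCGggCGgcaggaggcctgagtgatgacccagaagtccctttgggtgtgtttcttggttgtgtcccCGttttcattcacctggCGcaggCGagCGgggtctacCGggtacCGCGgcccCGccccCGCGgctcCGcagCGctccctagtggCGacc
The Dkk2 window held TATAAA on its own strand, beginning 32 bases before the start, and 8.32% of all 32851 promoter windows held it on that strand (13.6% on either strand). Forms of the TCF/LEF recognition core, CTTTG followed by AA, AT, TA or TT, were searched on both strands; each has 7 letters and none contains TATAAA. At least 1 match was present in 16.9% of all windows and in 0 of the 5 windows of these genes. The full windows had 25 CG dinucleotides for Wif1, 22 for Sfrp2, 20 for Frzb, 11 for Dkk2 and 6 for Nkd1, against a median of 7 over all windows. For Nkd1 the RefSeq start lay 6279 bases from the GENCODE start, and for Frzb 229 bases, so for these genes the window may not cover the promoter in use.

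Total counts per library ranged from 15449444 to 38799033. Tumour replicate 4 had the fewest counts and had 9.14% of the listed genes at 0, against at most 1.40% in each of the others. The design text states 2 males and 2 females per group. The labels do not give the sex of a library, and Xist, an RNA of the inactive X chromosome, was at 491 CPM (the read count scaled to a common library total) or more in all 4 tumour libraries but at 0.681 CPM or less in 2 normal adult and 2 P14 libraries, so the tumour libraries go against the stated sexes. The fibroblast markers were present in every group, with the sum of 8 stromal genes, most of it collagen transcripts, at 26839 to 34050.3 CPM in normal adult libraries, 71871 to 93797 CPM in P14 and 11627 to 30319 CPM in tumour libraries. The genes of that list did not move alike. From normal adult to P14 the mean of Col3a1 went from 17632 to 56751 CPM. Means of Lum (874 to 1409 CPM), Vim (961 to 1350.2 CPM) and Pdgfrb (147 to 189 CPM) also rose. Those of Pdgfra (1014 to 917 CPM) and Dcn (3768 to 3249.9 CPM) were lower at P14. Epithelial transcripts were also present despite the sort, at a sum over 8 markers of 5504 to 11833, 368 to 2459 and 1375 to 4642 CPM. The sum of 5 squamous epithelial markers, which include Krt5 and Krt14, was 6.86 to 269.9 CPM in adults, 47.2 to 94.9 CPM in pups and 3943 to 12023 CPM in tumour libraries, so that the tumour libraries also held RNA of squamous type. In bulk samples such as these, more cells of a type and more RNA per cell cannot be told apart.

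**Figure D1:**
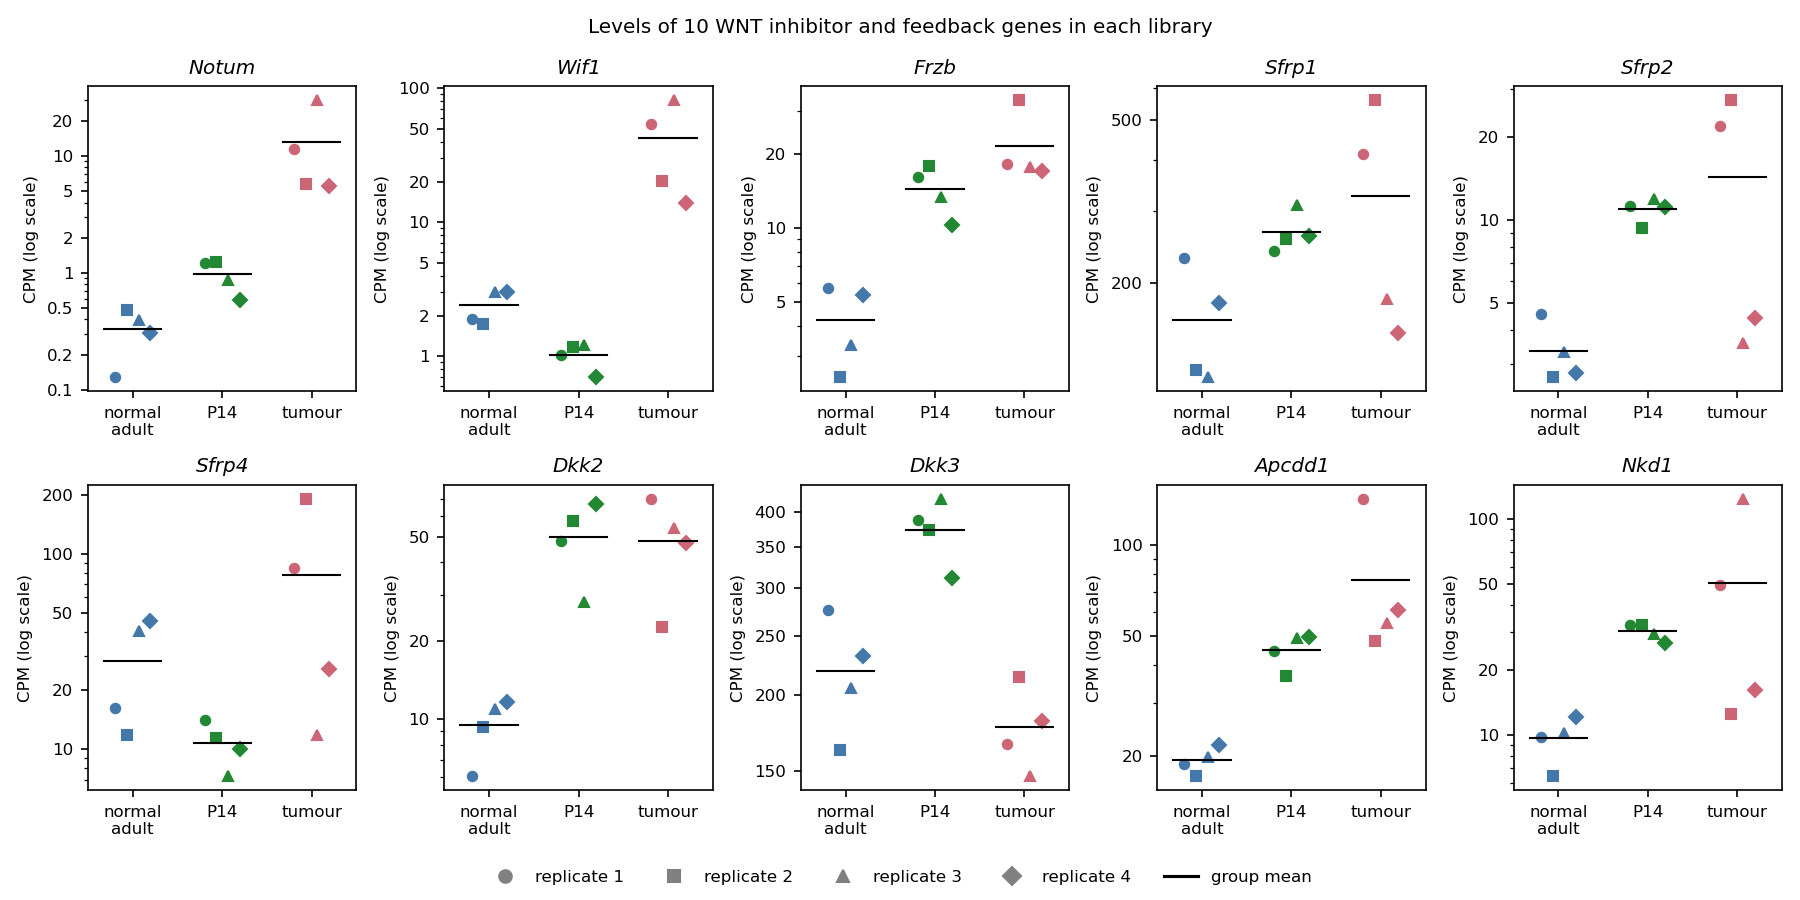
Normalised counts (CPM, log scale) of the 10 genes in each of 12 libraries, with 1 symbol per replicate and a bar at the mean of each group of 4. Notum and Wif1 in tumour libraries stood above every library of the other groups, and the tumour values of Sfrp4, Nkd1 and Sfrp2 had the widest spread, 16.2-fold, 9.91-fold and 7.64-fold from lowest to highest.

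The extracellular inactivator Notum and the WNT binder Wif1 were the genes of the set with the largest differences, and both were highest in tumours. Notum (ENSMUSG00000042988, chromosome 11, 120653788 to 120661175, minus strand, GRCm38) was at 0.128, 0.479, 0.397 and 0.307 CPM in normal adult replicates 1 to 4, at 1.21, 1.24, 0.864 and 0.586 CPM in P14 replicates 1 to 4, and at 11.5, 5.73, 30.3 and 5.50 CPM in tumour replicates 1 to 4. No tumour value overlapped with those of another group, and the normal adult values rest on 4 to 13 counts per library. Notum was 40.3-fold higher in tumour than in normal adult libraries, with means of 13.2 ± 11.7 and 0.328 ± 0.151 CPM (SD, n = 4), a log2 fold change of 5.33 ± 0.64 (SE), and edgeR's adjusted p = 2.39e-04. Against P14 (0.974 ± 0.310 CPM) the log2 fold change in tumours was 3.76 ± 0.58 (edgeR, adjusted p = 4.42e-04). Without tumour replicate 3, the library with 30.3 CPM, these changes were 4.53 and 2.95, and both were still called. At P14 Notum stood 2.97-fold above normal adult without overlap, but the change of 1.57 ± 0.60 did not pass (edgeR, adjusted p = 0.0649). It passed in 6 of 20 alternative fits. The exons of Notum share 708 bases with the antisense gene Notumos, which itself had at most 4 counts in any normal adult or P14 library and 35, 26, 67 and 0 counts in tumour replicates 1 to 4. A second antisense gene that shares exonic bases with Notum, Myadml2os, had at most 1 count in any normal adult or P14 library and 9, 3, 28 and 0 counts in tumour replicates 1 to 4. Since the strand setting of the counting is not given, reads of these genes and of Notum cannot be told apart with certainty.

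Wif1 (ENSMUSG00000020218, chromosome 10, 121033960 to 121100650, plus strand) was at 1.89, 1.73, 2.99 and 3.03 CPM in the normal adult, 1.02, 1.18, 1.21 and 0.698 CPM in the P14 and 54.1, 20.4, 81.9 and 14.0 CPM in the tumour libraries. The lowest tumour library was thus above every other library, and P14 was below normal adult without overlap. The log2 fold change in tumours was 4.14 ± 0.51 against normal adult (17.7-fold, edgeR, adjusted p = 2.90e-04) and 5.38 ± 0.55 against P14 (41.6-fold, adjusted p = 3.66e-05). All 20 alternative fits called both changes for Wif1, as they did for Notum. The fall at P14, -1.24 ± 0.50, did not pass (edgeR, adjusted p = 0.0769), though 4 alternative fits called it.

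Of the 4 Frizzled-related genes, Frzb and Sfrp2 were called higher at P14 and in tumours, and Sfrp1 and Sfrp4 were not called against normal adult. Frzb (ENSMUSG00000027004, chromosome 2, 80411970 to 80447625, minus strand) was at 5.70, 2.47, 3.35 and 5.32 CPM in the normal adult libraries, at 16.2, 17.9, 13.4 and 10.3 CPM at P14 and at 18.3, 33.4, 17.7 and 17.2 CPM in tumours. Both groups stood above all normal adult libraries and overlapped with each other. Frzb rose by 1.78 ± 0.31 at P14 (3.43-fold, edgeR, adjusted p = 0.00160) and by 2.36 ± 0.32 in tumours (5.14-fold, adjusted p = 4.44e-04), on the log2 scale. The tumour and P14 libraries differed by 0.59 ± 0.30 (adjusted p = 0.142), and by 0.29 without tumour replicate 2, the library with 33.4 CPM.

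Sfrp2 (ENSMUSG00000027996, chromosome 3, 83766321 to 83774316, plus strand) was tightly grouped at P14 and split in tumours. Its values were 4.58, 2.69, 3.32 and 2.79 CPM in normal adult libraries, 11.3, 9.38, 12.0 and 11.2 CPM in P14, and 22.1, 27.4, 3.59 and 4.43 CPM in tumour libraries. Tumour replicates 1 and 2 were above, and replicates 3 and 4 below, every P14 library, and replicates 3 and 4 lay within the normal adult range. The log2 fold change was 1.71 ± 0.54 at P14 (edgeR, adjusted p = 0.0311) and 2.11 ± 0.55 in tumours (adjusted p = 0.0187). Both calls were fragile. The P14 call was lost without any 1 of 7 libraries (normal adult replicates 2 to 4 and P14 replicates 1 to 4; adjusted p up to 0.0838). The tumour call was lost without normal adult replicate 2, 3 or 4 (adjusted p up to 0.0544) and by limma voom (1.71, adjusted p = 0.0762). The exons of Sfrp2 share 347 bases with the antisense gene Gm26771. That gene is not among the listed genes, so its level could not be examined, and the unknown strand setting limits Sfrp2 too.

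Sfrp1 (ENSMUSG00000031548, chromosome 8, 23411502 to 23449632, plus strand) is the Frizzled-related gene with the highest level here. It was at 231, 123, 118 and 179 CPM in normal adult libraries, 240.0, 256, 311 and 261 CPM in P14 and 414, 561, 183 and 151 CPM in tumour libraries. P14 libraries all stood above the normal adult ones, by 0.71 ± 0.37 on the log2 scale (edgeR, adjusted p = 0.162). Tumour libraries differed from normal adult by 1.01 ± 0.37 (adjusted p = 0.0767), with replicates 1 and 2 above and replicates 3 and 4 within the normal adult range. Without tumour replicate 2 that difference was 0.62, and without tumour replicate 3 or 4 it passed (adjusted p = 0.0379 and 0.0264).

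Sfrp4 (ENSMUSG00000021319, chromosome 13, 19623104 to 19632994, plus strand) had the widest spread among tumours, 16.2-fold from the lowest to the highest library. It was at 16.2, 11.9, 40.3 and 45.3 CPM in normal adult libraries, 14.2, 11.4, 7.29 and 10.0 CPM in P14, and 84.3, 191, 11.8 and 25.8 CPM in tumour libraries. The values of every pair of groups overlapped. Sfrp4 was called higher in tumours than at P14 (log2 fold change 2.87 ± 0.73, edgeR, adjusted p = 0.00890), and without tumour replicate 2 the change was 1.91. Against normal adult it stood at -1.40 ± 0.70 for P14 (adjusted p = 0.148) and 1.46 ± 0.69 for tumours (adjusted p = 0.165), the latter 0.52 without tumour replicate 2 and called without tumour replicate 3 (adjusted p = 0.0497).

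The 2 Dickkopf genes differed in their pattern: Dkk2 was high in both P14 and tumours, and Dkk3 was high at P14. Dkk2 (ENSMUSG00000028031, chromosome 3, 132085292 to 132180304, plus strand) was at 6.06, 9.33, 11.0 and 11.7 CPM in the normal adult, 48.0, 57.6, 28.1 and 66.6 CPM in the P14 and 69.8, 22.5, 54.0 and 47.1 CPM in the tumour libraries. The lowest P14 and tumour libraries were above the highest normal adult one. Log2 fold changes were 2.40 ± 0.35 at P14 (5.26-fold, edgeR, adjusted p = 7.20e-04) and 2.34 ± 0.35 in tumours (5.08-fold, adjusted p = 9.14e-04). Both contrasts share the normal adult libraries. The direct difference between tumours and P14 was -0.05 ± 0.33 (adjusted p = 0.921).

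Dkk3 (ENSMUSG00000030772, chromosome 7, 112116017 to 112159057, minus strand) was at 276, 162, 205 and 232 CPM in normal adult libraries, 387, 373, 419.9 and 311 CPM in P14 and 166, 214, 147 and 181 CPM in tumour libraries. All P14 libraries were above all others, and tumour and normal adult values overlapped. Dkk3 rose by 0.77 ± 0.18 on the log2 scale at P14 (1.70-fold, edgeR, adjusted p = 0.00667) and was 2.11-fold lower in tumours than at P14 (log2 fold change -1.08 ± 0.18, adjusted p = 7.44e-04). Against normal adult the tumour change was -0.31 ± 0.18 (adjusted p = 0.257). The sum of the stromal markers, most of it collagen transcripts, was also highest at P14. Among the other genes of that list, Lum, Vim and Pdgfrb had higher means at P14 than in normal adult libraries. Pdgfra and Dcn had lower means at P14. The part of these stromal markers in the Dkk3 result was not tested.

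The feedback genes Apcdd1 and Nkd1 were higher than normal adult in both P14 and tumour libraries. Apcdd1 (ENSMUSG00000071847, chromosome 18, 62922231 to 62961179, plus strand) had the least spread of the 10 genes in normal adult colon, at 18.8, 17.1, 19.8 and 21.7 CPM. It was at 44.4, 36.7, 49.2 and 49.4 CPM in P14 and at 142, 47.8, 55.2 and 60.9 CPM in tumour libraries, so neither group overlapped with normal adult. It rose by 1.22 ± 0.29 at P14 (2.32-fold, edgeR, adjusted p = 0.00794) and by 1.98 ± 0.30 in tumours (3.96-fold, adjusted p = 8.94e-04). Without tumour replicate 1, which was far above the others, the tumour rise was 1.50. Tumours against P14 gave 0.77 ± 0.29 (adjusted p = 0.0532), a change that 3 alternative fits called.

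Nkd1 (ENSMUSG00000031661, chromosome 8, 88521354 to 88594884, plus strand) was even across P14 and uneven across tumours. It was at 9.80, 6.45, 10.2 and 12.1 CPM in normal adult libraries, 32.4, 32.3, 29.3 and 26.8 CPM in P14, and 49.7, 12.5, 124 and 16.2 CPM in tumour libraries. Tumour replicates 2 and 4 were above the normal adult range and below every P14 library. Log2 fold changes were 1.65 ± 0.56 at P14 (3.13-fold, edgeR, adjusted p = 0.0422) and 2.39 ± 0.58 in tumours (5.24-fold, adjusted p = 0.0130). The P14 call was lost without any 1 of 9 libraries (each normal adult and P14 library, and tumour replicate 1; adjusted p up to 0.112), on unscaled library totals and by limma voom, although the 2 groups did not overlap. The tumour call held without each single library (adjusted p up to 0.0415) and was lost by limma voom (adjusted p = 0.0576), and the change was 1.44 without tumour replicate 3. Tumours and P14 differed by 0.74 ± 0.55 (adjusted p = 0.308), or by -0.21 without tumour replicate 3.

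**Figure D2:**
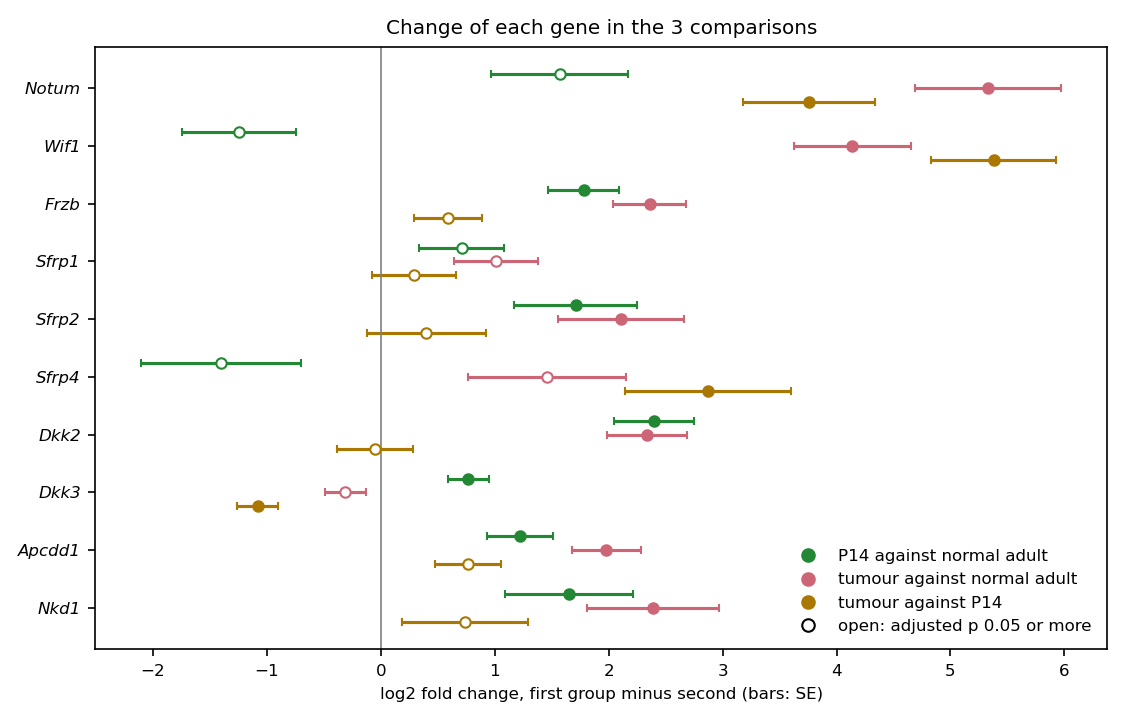
Log2 fold change of each gene in the 3 comparisons, with bars for the SE of the edgeR fit; filled points passed an adjusted p under 0.05 and open points did not. In tumours against normal adult 7 points are filled, all to the right of 0, and in tumours against P14 Dkk3 is the filled point to the left.

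At P14, 6 of the 10 genes were called higher than in normal adult colon and 0 lower; of the 18727 tested genes 30.9% were called, 14.9% higher and 16.0% lower. By unadjusted p under 0.05, 1 gene (Wif1) was lower, and DESeq2 called 1 lower and limma voom 0. In tumours, 7 were called higher than normal adult and 0 lower, against 10.6% and 8.29% of tested genes (18.9% in all), and the count lower was also 0 by unadjusted p, DESeq2 and limma voom. Against P14, tumours had 3 genes called higher (Notum, Wif1, Sfrp4) and 1 lower (Dkk3), against 19.7% and 17.3% of tested genes (37.0% in all). The median log2 fold change of the 10 genes was 1.39, 2.23 and 0.66 in the 3 comparisons, and that of all tested genes 0.00, 0.00 and 0.05. Values of 9 genes did not overlap between P14 and normal adult, where 43.3% of tested genes did not, and 6 did not overlap between tumour and normal adult, where 22.0% did not. Of the 9, 8 were higher and 1 lower at P14 (21.6% and 21.7% of tested genes), and all 6 were higher in tumours (11.0%). Between tumour and P14, 3 did not overlap, 2 higher and 1 lower in tumours, a share close to the 32.2% of all tested genes (14.8% higher and 17.3% lower). Since the 10 genes were chosen with earlier results of these data known, the shares of all genes serve as a description, not as a test.

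With the 4 Xist-low libraries left out, 2 normal adult, 2 P14 and 4 tumour libraries remained. The log2 fold changes kept their sign in all 10 genes of each comparison. At P14 0 genes of the set were then called by edgeR, with 23 genes called of all 18862 tested, so this fit finds few changes of any kind. Dkk2 then changed by 2.34 (adjusted p = 0.0734) and Frzb by 1.61 (adjusted p = 0.123). In tumours against normal adult 4 genes stayed called: Notum (5.22), Wif1 (3.82), Frzb (2.32) and Dkk2 (2.09), with adjusted p from 0.0236 to 0.0360. Apcdd1 changed by 1.88 (adjusted p = 0.0595), Sfrp2 by 2.24 (adjusted p = 0.199) and Nkd1 by 2.18 (adjusted p = 0.225). In tumours against P14, Notum, Wif1 and Dkk3 stayed called and Sfrp4 did not (2.69, adjusted p = 0.121).

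Per length of merged exons, Dkk3 and Sfrp1 were the leading transcripts of the set in every group. Dkk3 was at 65.1 ± 14.3, 111 ± 13.5 and 52.7 ± 8.48 CPM per kb and Sfrp1 at 37.2 ± 12.2, 61.1 ± 7.06 and 74.8 ± 44.6 CPM per kb in normal adult, P14 and tumour libraries (SD, n = 4). Their ranges overlapped in normal adult, where Dkk3 was nonetheless the higher in all 4 libraries, and in tumours, where it was the higher in 2 of 4. At P14 Dkk3 was above Sfrp1 without overlap. Notum had the lowest mean in every group, at 0.136 ± 0.0625, 0.405 ± 0.129 and 5.50 ± 4.86 CPM per kb. It was below all others without overlap in normal adult colon, but overlapped with Wif1 at P14, where Wif1 was the higher in 2 of 4 libraries, and with Apcdd1 in tumours.

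The order between these ends differed by group. In normal adult colon the next was Sfrp4 (6.80 ± 4.03 CPM per kb), followed by Dkk2, Nkd1, Sfrp2, Apcdd1, Frzb and Wif1, from 2.57 down to 0.994 CPM per kb, with each neighbour overlapping the next. At P14 Dkk2 came next (13.5 ± 4.45 CPM per kb) and above Nkd1 (6.63 ± 0.586) and Sfrp2 (5.09 ± 0.517) without overlap between neighbours. Sfrp2, Frzb (4.47), Apcdd1 (3.49) and Sfrp4 (2.57) overlapped with their neighbours, and Wif1 (0.422) lay below Sfrp4. Per length of the longest transcript instead, Dkk2 and Nkd1 did overlap at P14 (lowest Dkk2 value 7.59, highest Nkd1 value 7.95 CPM per kb). In tumours Sfrp4 (18.7 ± 19.5) and Wif1 (17.6 ± 13.0 CPM per kb) came next, and all neighbours in the order overlapped. Of the summed CPM per kb of the 10 genes, Dkk3 and Sfrp1 together made 81.2% to 90.7% in normal adult, 79.6% to 86.7% in P14 and 45.6% to 67.6% in tumour libraries, with no overlap between tumours and the rest.

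**Figure D3:**
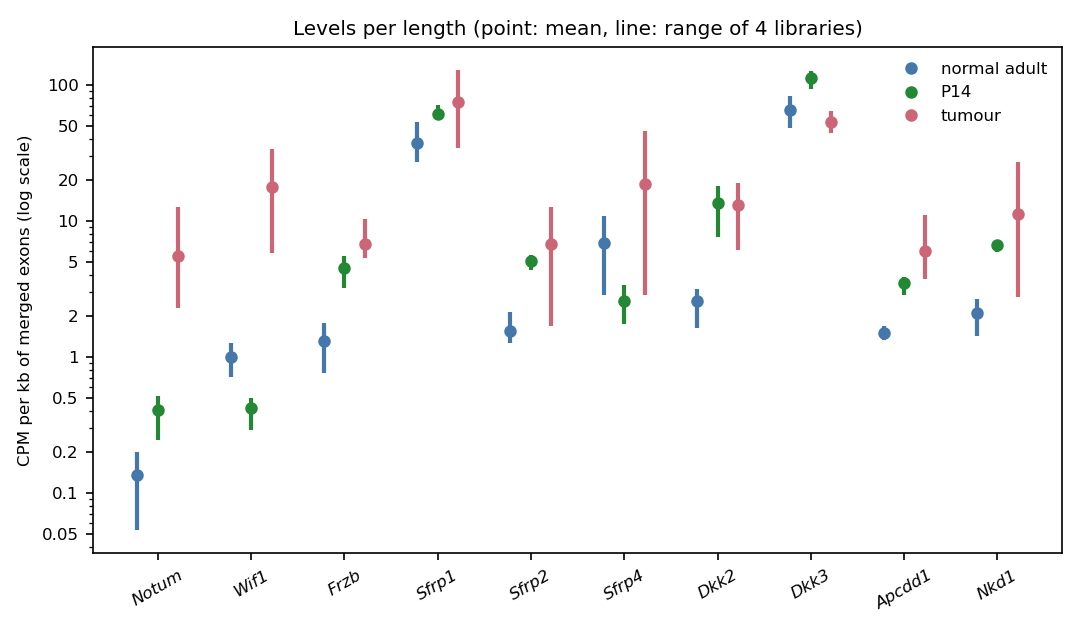
Level of each gene in CPM per kb of merged exons (log scale), with a point for the mean and a line for the range of 4 libraries per group. Dkk3 and Sfrp1 stand highest in all 3 groups, and the tumour ranges of Sfrp4 and Nkd1 are among the longest.

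The order of the tumour libraries differed between genes. Notum, Wif1 and Nkd1 were highest in replicate 3 and next in replicate 1, and Axin2, the usual reporter of canonical WNT signalling, had the same leading pair, at 49.4, 13.0, 78.1 and 17.4 CPM in tumour replicates 1 to 4. Frzb, Sfrp1, Sfrp2 and Sfrp4 were highest in replicate 2 and next in replicate 1. Dkk2 and Apcdd1 were highest in replicate 1, and Dkk3 in replicate 2 and next in replicate 4. Replicate 3 thus held the highest Notum, Wif1 and Nkd1 of all 12 libraries together with the lowest Sfrp2 and Sfrp4 of the tumours. With 4 libraries these orders are given as a description, without a test.

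Marker sums in the same libraries followed some of these orders. In tumour replicates 1 to 4 the epithelial sum was 3925, 1375, 4642 and 3049.5 CPM, the order seen for Nkd1 and Axin2. The squamous sum was 5588, 5064, 3943 and 12023 CPM, lowest in the library with the most Notum and Wif1. The stromal sum was 23457, 30319, 11627 and 20357 CPM and the adventitial fibroblast sum, over 6 markers, was 695, 1026, 342 and 429.6 CPM, both in the order seen for Sfrp2 and Sfrp4. The B and plasma cell sum (151, 834, 17.4 and 70.1 CPM) had that order too. Lymphatic endothelial markers (26.9, 14.9, 63.8 and 3.36 CPM) had the order of Notum and Wif1. Endothelial (45.3, 72.1, 33.3 and 33.1 CPM) and erythroid sums (9.45, 12.7, 2.47 and 1.93 CPM) had that of Frzb and Sfrp1. Several lists thus shared an order with a gene, so an order alone does not name a cell type. The pericyte sum was 3584, 1965, 2319 and 1651 CPM, highest in replicate 1, which also had the highest Dkk2 and Apcdd1. Its full order was that of neither gene. The part of these cells in the levels of the 10 genes was not tested.

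**Figure D4:**
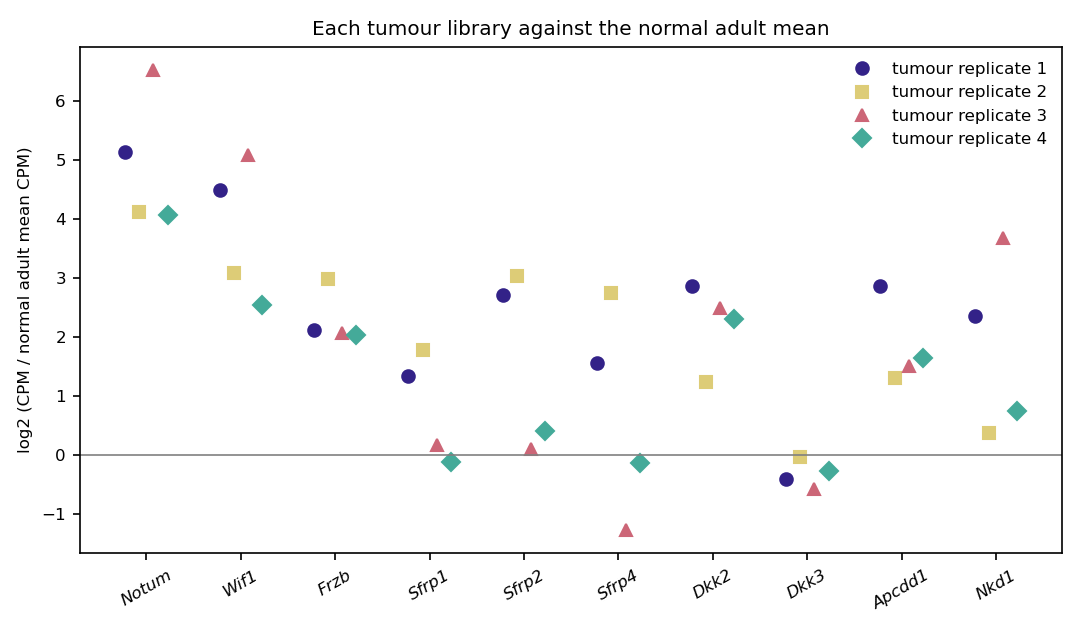
Log2 ratio of each tumour library to the mean of the 4 normal adult libraries, by gene, with 1 symbol per tumour replicate. Replicate 3 is highest for Notum, Wif1 and Nkd1, and replicate 2 for Frzb, Sfrp1, Sfrp2 and Sfrp4.

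Between groups, the sum of 6 pericyte markers, such as Rgs5 and Kcnj8, was higher in P14 (1578 to 2273 CPM) and tumour (1651 to 3584 CPM) than in normal adult libraries (457 to 819.9 CPM). Most of the set went in that direction. Dkk2, Frzb, Sfrp2, Apcdd1 and Nkd1 were called higher in both groups, and Notum and Sfrp1 had higher estimates in both. Wif1, Sfrp4 and Dkk3 did not. The sum of 8 smooth muscle markers was 3994 to 8039.8 CPM at P14, against 1029.6 to 1848 CPM in normal adult and 1127 to 2168 CPM in tumour libraries. Sums whose groups did not overlap had p = 0.0286 (exact permutation test, two-sided), which is the minimum with 70 assignments, and an adjusted p = 0.0607 over 51 tests, so no marker sum passed 0.05 after adjustment. Defining markers of mesothelium were near 0, with a sum of 5 genes at 1.83 to 15.2 CPM over all libraries. Leukocyte and macrophage markers summed to 72.6 to 91.3 CPM in normal adult and 8.35 to 51.3 CPM in the other libraries. The part of these differences in the results above was not tested.

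**Figure D5:**
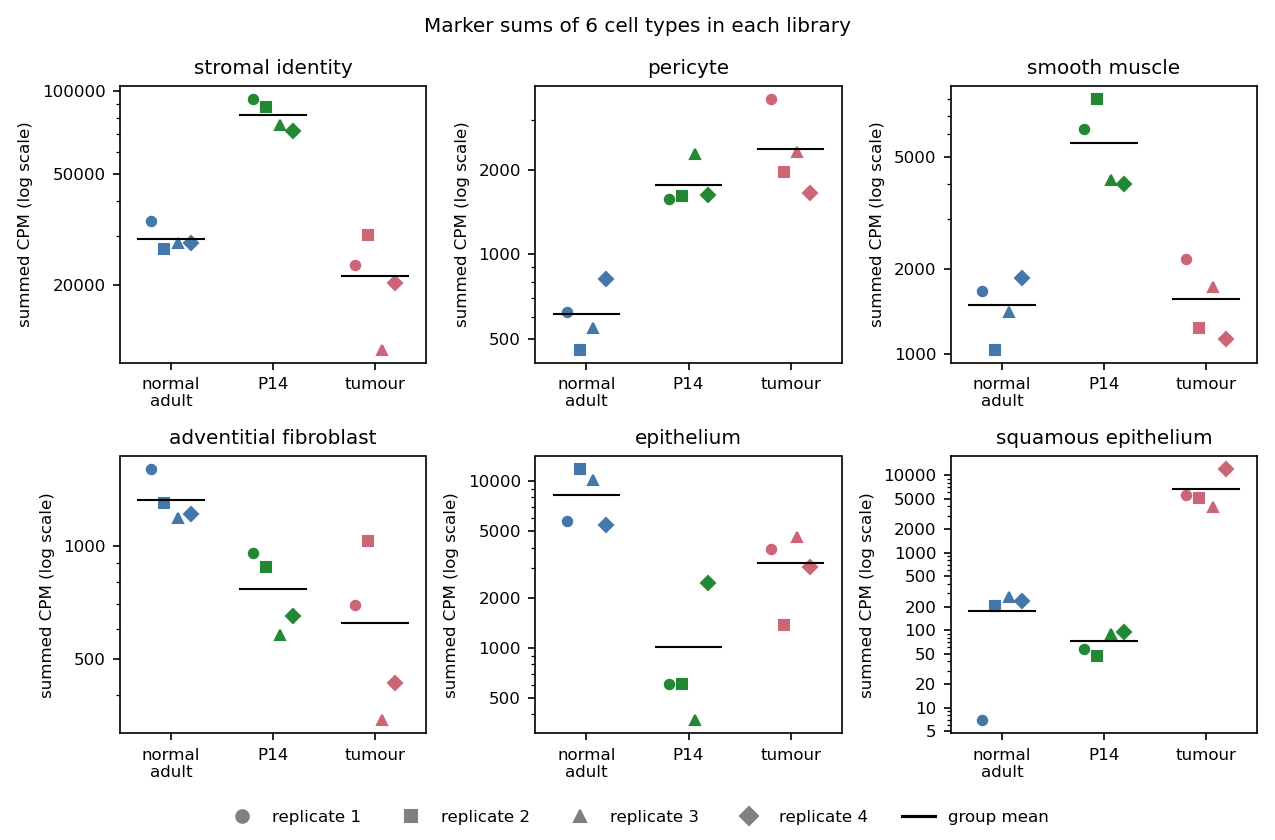
Summed CPM (log scale) of the markers of 6 cell types in each of 12 libraries, with 1 symbol per replicate and a bar at the group mean. Squamous markers stand far higher in tumours (3943 to 12023 CPM) than in the other groups, and pericyte markers are lowest in normal adult colon.

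The rest of the pathway was read from 7 lists of 91 genes, of which 80 could be tested. Among 14 other feedback genes, 6 were higher and 1 lower in tumours than in normal adult colon, and 4 were higher and 2 lower at P14, with medians of 0.95 and 0.20. For these and the following counts, the shares of all tested genes were 10.6% higher and 8.29% lower in tumours and 14.9% higher and 16.0% lower at P14. Axin2, which scaffolds the complex that degrades beta-catenin, averaged 11.8 CPM in adults, 13.5 CPM in pups and 39.5 CPM in tumours. Its log2 fold change in tumours was 1.75 ± 0.45 (edgeR, adjusted p = 0.0176), lost without normal adult replicate 1 (adjusted p = 0.0541) and by limma voom, whereas P14 gave 0.20 ± 0.44 (adjusted p = 0.770). Dact1, a modulator of Dishevelled, fell by 1.48 ± 0.29 in tumours (adjusted p = 0.00408). At P14 Dact2 (-2.48 ± 0.41, adjusted p = 0.00130) and Rnf43, a ubiquitin ligase that removes Frizzled (-1.94 ± 0.54, adjusted p = 0.0160), fell; the Rnf43 call was lost without normal adult replicate 2 or P14 replicate 2 (adjusted p = 0.0505 and 0.0510). The epithelial sum was also lower at P14, and its part in these falls was not tested. Rnf43 and the stem cell receptor Lgr5 were higher in tumours than at P14, by 3.33 ± 0.56 and 2.10 ± 0.62 (adjusted p = 7.96e-04 and 0.0189; for Lgr5 1.09 without tumour replicate 3, the call being lost there and without P14 replicate 1, 2 or 3, adjusted p up to 0.0813). The epithelial sum also had a higher mean in tumours (3248 CPM) than at P14 (1009 CPM), with overlap. Its part in the Rnf43 and Lgr5 differences was not tested.

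Of 14 other genes listed with the inhibitors of the extracellular step, 10 were tested. The list also holds membrane proteins such as Kremen2 and Bambi, so its counts are not a measure of inhibition. At P14 2 rose and 1 fell, and in tumours 3 rose and 0 fell against normal adult (2 lower by unadjusted p, 1 by DESeq2 and 0 by limma voom). The P14 counts were near the 14.9% and 16.0% of all tested genes. Draxin, a secreted inhibitor known from axon guidance, was 0.0781 CPM on average in normal adult and 3.82 CPM in tumour libraries (log2 fold change 5.53 ± 0.66, edgeR, adjusted p = 2.20e-04). Its normal adult values were near the floor, at 0 to 0.180 CPM, so the size of this change is uncertain. Igfbp4, an IGF-binding protein that also antagonises WNT, rose from 263 to 716 CPM (1.45 ± 0.38, adjusted p = 0.0190), a call lost without normal adult replicate 2, 3 or 4 (adjusted p up to 0.0573). Kremen2, a Dickkopf receptor, fell by 2.35 ± 0.59 at P14 (adjusted p = 0.0102), and Bambi rose by 0.86 ± 0.14 (adjusted p = 0.00128).

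Of 14 tested WNT ligands, 6 rose and 4 fell in tumours against normal adult, and 3 rose and 2 fell at P14, the latter near the 14.9% and 16.0% of all tested genes. Wnt10a was at 0.0961, 0.369, 0.901 and 0.716 CPM in normal adult and at 19.3, 18.5, 19.7 and 18.7 CPM in tumour replicates 1 to 4, nearly level where Notum differed 5.50-fold between tumours (log2 fold change 5.19 ± 0.47, edgeR, adjusted p = 3.71e-05). Wnt3a rose by 4.99 ± 0.79 (edgeR, adjusted p = 0.00127), from normal adult values near the floor (0 to 0.397 CPM), so the size of its change is uncertain. Both ligands rose in the group with the high squamous sum, whose part was not tested. Wnt10b fell by 2.35 ± 0.49 at P14 (adjusted p = 0.00374), and Wnt16 rose by 1.60 ± 0.47 (adjusted p = 0.0221, lost without normal adult replicate 2 or 3 or P14 replicate 4, adjusted p up to 0.0744). Of 3 R-spondins tested, Rspo2 and Rspo3 rose at P14 (1.83 ± 0.59 and 1.37 ± 0.33, adjusted p = 0.0330 and 0.00839). The Rspo2 call was lost without normal adult replicate 1, 2 or 3 or any P14 library (adjusted p up to 0.0939). Of the R-spondins, 0 were called in tumours against normal adult by edgeR, DESeq2 or limma voom, with 2 higher at an unadjusted p under 0.05. In tumours against P14, Rspo2 was lower (-2.61 ± 0.62, adjusted p = 0.00614) and Rspo1 higher (1.91 ± 0.64, adjusted p = 0.0343, lost without P14 replicate 1, 2 or 3 or tumour replicate 1 or 2, adjusted p up to 0.119).

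Of 19 tested receptors and co-receptors, 10 rose and 2 fell at P14, led by Gpc3, a glypican (1.68 ± 0.26, adjusted p = 8.29e-04), and Fzd3 (1.67 ± 0.17, adjusted p = 1.17e-04). Of all tested genes 14.9% rose and 16.0% fell at P14. In tumours 4 receptors rose and 2 fell, the latter near the 8.29% of all tested genes, led by Lgr6, an R-spondin receptor (3.38 ± 0.54, adjusted p = 0.00132), and Fzd10 (2.83 ± 0.35, adjusted p = 2.87e-04). Of 18 genes of the intracellular core, 4 rose and 1 fell at P14, among them Pygo1, a cofactor of beta-catenin (1.64 ± 0.28, adjusted p = 0.00134); of all tested genes 14.9% rose and 16.0% fell. In tumours 0 of these 18 were called by edgeR in either direction, with 1 higher and 1 lower at an unadjusted p under 0.05, 1 lower by DESeq2 and 0 by limma voom. For secretion of WNT, Porcn rose in tumours by 0.62 ± 0.20 (adjusted p = 0.0497), a call lost without any 1 of the 12 libraries. Without the Xist-low libraries 0 genes of any of the 7 lists were called at P14, and 0 of the 14 feedback genes were called in tumours against normal adult.

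For each gene, the 2 genes with the most similar pattern were taken by Pearson correlation of log2(CPM + 0.5) over the 12 libraries among 11580 genes. The libraries form 3 groups, so these correlations mostly reflect differences between groups and are given as a description. Notum was most like Foxc1 (r = 0.97) and Ltbp2 (0.96), and Wif1 like Lrrc45 and Naa25 (0.97 each). Apcdd1 was most like Gja4 (0.98) and Ndufa4l2 (0.97). Sfrp1 was most like Sfrp2 (0.93), another gene of the set, and Ercc6l2 (0.92), and Sfrp2 like Igfbp4 (0.95) and Xxylt1 (0.94). Nkd1 was most like the ligand Wnt6 (0.96) and Tbc1d1 (0.95). Dkk2 was most like Ttll7 and the guidance ligand Slit2 (0.94 each), Dkk3 like Lrch2 and Rassf8 (0.98 each), Frzb like Slc39a10 and Serpina3g (0.97 each; Serpina3g has near-identical copies, so its counts are uncertain), and Sfrp4 like Slfn8 (0.89) and Lbp (0.88). By Spearman correlation the first gene was again among the first 2 for 3 of the 10.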

How the data were processed

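RNA-seq counts of 12 libraries of sorted colonic stromal cells were analysed. The deposited table holds whole-number read counts by Ensembl ID, with 1 column per library and no normalization, and every row sums to 12 or more. Per the labels' protocols, the libraries were stranded, from RNA with a poly(A) tail, with single reads of 75 bases. GRCm38, STAR 2.4.2a and edgeR 3.28.0 are named per the submitters' processing notes; for the counting tool, annotation and strand setting the answer is: not given in the sources used here. IDs matched GENCODE M21 (GRCm38) for 19012 of 19049 genes.

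All 12 libraries entered 1 quasi-likelihood fit in edgeR 4.0.16 (R 4.3.3) with TMM factors; filterByExpr (minimum count 10, total 15) kept 18727 genes. A gene was called where its p, adjusted by Benjamini-Hochberg over all tested genes, was under 0.05. The SE is the absolute log2 fold change divided by the square root of F. CPM is scaled to library totals times TMM factors, and its SD is over 4 libraries. No term for sex or age was used, since sex is not labelled and age goes with the group. Counts of 2 libraries of 1 group differed beyond sampling noise in every pair (chi-square over its degrees of freedom at least 11.7). The labels count 4 mice per group but do not tie a library to a mouse, so p-values measure the spread between libraries. Counts carry no molecular identifiers. The script was tested on simulated counts. Alternatives were RLE factors, library totals, no filter, DESeq2 1.42.0, limma 3.58.1 voom, 2 groups alone, each library left out, a block on the title number, Xist-low libraries left out and a threshold of 0.01. Marker sums were compared by exact permutation.

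The 10 genes, the lists and the rule for named genes (the 10 genes, Axin2, Rspo3, up to 2 called genes of largest change per WNT list and comparison among those averaging 1 CPM or more, and the 2 most similar genes among those averaging 5 CPM or more) were chosen with earlier results of these data known. The text prints a part of the genes that the rule names.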

Additional observations from a re-analysis of the deposited data

Results flagged for a closer look

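In groups of 4 libraries, a value was marked where its gap to the nearest other value exceeded Dixon's 95% critical share of the whole range. Of 81 groups examined (30 of them for the 10 genes), 8 were marked, and chance marks about 1 in 20. Among the genes, Frzb was at 33.4 CPM in tumour replicate 2, with the other tumours at 17.2 to 18.3 CPM. Apcdd1 was at 142 CPM in tumour replicate 1, with the others at 47.8 to 60.9 CPM. Among marker sums, tumour replicate 2 stood apart for B and plasma cells (834 CPM), leukocytes and macrophages (51.3 CPM) and interstitial cells of Cajal (202 CPM, the lowest). P14 replicate 3 had the highest pericyte sum (2273 CPM), P14 replicate 4 the highest epithelial sum (2459 CPM) and normal adult replicate 4 the highest endothelial sum (303 CPM) of their groups.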

How the results depend on the processing

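Of 600 refits of the 10 genes' log2 fold changes, 533 kept direction and side of the threshold, 41 lost a call, 19 gained one and 7 changed sign, all 7 in tumours against P14 where no call had been made. These were Dkk2 (0.02 and 0.11 without P14 replicate 2 or 4, 0.17 without tumour replicate 2), Sfrp1 (-0.11) and Sfrp2 (-0.14) without tumour replicate 2, Sfrp2 by limma voom (-0.02) and Nkd1 without tumour replicate 3 (-0.21). With 1 library left out, these changes ran from -0.28 to 0.17 for Dkk2, -0.11 to 0.53 for Sfrp1, -0.14 to 0.72 for Sfrp2 and -0.21 to 1.06 for Nkd1. The count of genes lower at P14 was 1 by DESeq2, 2 with the 2 groups alone and 0 to 1 with 1 library left out, against 0. Without the Xist-low libraries the count higher was 0 at P14, against 6, and 4 in tumours against normal adult, against 7, with 23, 644 and 1999 of all genes called in the 3 comparisons, against 5789, 3545 and 6930; this fit has 4 fewer libraries. Without normal adult replicate 3, 2303 genes were called in tumours against normal adult. Libraries left out one at a time gave 4 to 7 genes higher at P14 and 6 to 9 in tumours against normal adult. The erythroid marker sum changed sign between tumours and P14 on library totals (exact permutation p = 0.971).

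Libraries share title numbers across groups. Deviations from the group means correlated above 0.1 in 3 of the 6 pairs with a common number. All 3 were pairs of number 2 (r = 0.25, 0.38 and 0.31). Pairs of numbers 1, 3 and 6 gave r = -0.12, -0.35 and 0.02. The numbers were not taken to pair the libraries, and what the libraries of number 2 may share was not tested. With the replicate block on the title number, 4 genes were called higher at P14 and 4 in tumours against normal adult, and 2953, 818 and 3740 of all genes were called. Low counts limit Notum in normal adult libraries (4 to 13 counts) more than any other gene of the set.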
